A study of Homo sapiens with 6 samples.

Results

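The zinc finger genes of human chromosome 19 were examined in m6A peak lists from the glioblastoma line U-251 MG. The members are the protein-coding genes of chromosome 19 in the RefSeq annotation of GRCh38 whose symbol is ZNF followed by digits alone, 240 of 20056 coding genes. A peak was assigned to a member when it touched its gene body, and where several coding bodies were touched, to the one that held the peak and lay inside the others. The 3 conditions were cells with a hairpin against TRA2A (shTRA2A), an RNA-binding regulator of splicing, cells with a hairpin against METTL3 (shMETTL3), the catalytic subunit of the m6A writer, and cells with the control hairpin (shNC). Per the labels, all cells were of the same line and grown alike, and each condition had 1 immunoprecipitated and 1 input library. With a single list per condition, differences between conditions have no replicate error here and were not tested. Intervals are exact Clopper-Pearson 95% intervals, which cover counting error alone and treat genes and peaks as independent.

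N6-methyladenosine (m6A) is laid on messenger RNA by a complex around METTL3 and METTL14 and is found mostly in long internal exons and around the stop codon. The ZNF genes encode proteins with tandem C2H2 zinc fingers, which bind DNA. Many also carry a KRAB domain that recruits the corepressor TRIM28 and the histone methyltransferase SETDB1, and a main known target is the DNA of transposable elements. The family grew by tandem duplication, so on chromosome 19 its genes stand in clusters, and the finger array of each protein usually lies in 1 long last exon. Neighbouring members can be alike in sequence, and the sources used here do not give how reads mapping to several of them were counted.

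The lists held 2736 shTRA2A, 5433 shMETTL3 and 9206 shNC peaks. Each peak has a score from the authors' peak caller, and "strong" and "weak" below mean high and low in it. Its scale is not stated, so scores are ranked within a list alone. Peak lists carry no transcript levels, so neither the level of a ZNF transcript nor the depletion of TRA2A or METTL3 was measured. A ZNF gene without a peak may be unmethylated, lowly expressed or below the caller's threshold, and these cannot be told apart here. Of 8 glial and mesenchymal markers, 2, 2 and 3 had a peak in the shTRA2A, shMETTL3 and shNC lists, SOX9 and NES in all of them and GFAP, VIM and OLIG2 in none. Of 5 neuron markers MAP2 alone had peaks, in shTRA2A and shNC, and none of 8 markers of microglia, blood and endothelium had any. Peaks do not show whether a marker is expressed, so these counts check the cell line only loosely.

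Few member peaks reached a gene start. RefSeq windows of 250 bases before to 50 bases after a start (GRCh38.p14) were at hand for 210 members, and 3 windows that a peak entered are shown. They hold the leading shTRA2A peak, a peak common to both knockdown lists, and a narrow control peak just past a start. Capitals mark bases inside the peak. The ZNF841 window (chr19:52094222-52094521, minus strand) belongs to a start inside the gene body, downstream of the body's first base, and lay wholly within the strongest shTRA2A peak of any member. The ZNF580 window (chr19:55641802-55642101, plus strand) belongs to a second start of that gene and was entered by a peak with the same coordinates in the shTRA2A and shMETTL3 lists. The ZNF574 window (chr19:42075916-42076215, plus strand) was entered at its transcribed end by a shNC peak of 75 nt (score 13.3).
ZNF841: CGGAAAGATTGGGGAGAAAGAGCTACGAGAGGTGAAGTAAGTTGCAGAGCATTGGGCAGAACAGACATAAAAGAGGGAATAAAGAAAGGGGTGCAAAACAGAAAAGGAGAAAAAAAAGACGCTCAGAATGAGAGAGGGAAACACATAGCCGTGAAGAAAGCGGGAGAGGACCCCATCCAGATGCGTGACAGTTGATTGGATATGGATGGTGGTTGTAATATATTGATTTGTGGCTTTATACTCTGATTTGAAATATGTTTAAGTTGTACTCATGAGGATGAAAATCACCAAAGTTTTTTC
ZNF580: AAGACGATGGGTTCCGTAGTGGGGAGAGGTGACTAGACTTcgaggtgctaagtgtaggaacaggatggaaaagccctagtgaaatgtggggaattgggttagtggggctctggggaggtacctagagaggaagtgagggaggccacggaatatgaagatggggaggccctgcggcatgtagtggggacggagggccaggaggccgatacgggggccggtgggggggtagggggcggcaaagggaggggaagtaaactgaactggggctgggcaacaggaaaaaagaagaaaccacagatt
ZNF574: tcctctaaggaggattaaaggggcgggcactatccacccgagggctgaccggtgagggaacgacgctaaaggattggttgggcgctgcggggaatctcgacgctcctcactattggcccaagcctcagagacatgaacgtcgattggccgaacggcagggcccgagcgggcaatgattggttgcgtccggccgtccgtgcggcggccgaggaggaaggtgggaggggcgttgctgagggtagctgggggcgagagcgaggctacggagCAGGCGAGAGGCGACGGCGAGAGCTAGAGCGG
The m6A core motif GGACT, searched on both strands, was in none of these 3 windows. Some other member windows that a peak entered did hold it. In ZNF546, ZNF577 and the upstream ZNF580 window it lay inside the peak, and in ZNF17 and ZNF528 outside it. The windows of ZNF160 and ZNF765 did not hold it. The peaks in the windows of ZNF577, ZNF17, ZNF528, ZNF765 and upstream ZNF580 were not assigned to these genes. Those in the ZNF577 and ZNF528 windows were on the opposite strand. GGACT was in 145 of 261 member windows, 55.6%, and in 45.3% of 22199 windows of coding genes.

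Members carried control peaks often. A shTRA2A peak was assigned to 24 of the 240 members, 10.0% (6.51 to 14.5%), a shMETTL3 peak to 42, 17.5% (12.9 to 22.9%), and a shNC peak to 112, 46.7% (40.2 to 53.2%). Over all coding genes these shares were 8.86%, 15.6% and 19.9%. The members' share thus stood well above the background in the shNC list, and within 2 percentage points of it in both knockdown lists. ZNF genes on other chromosomes gave 12.7%, 24.1% and 43.9% of 237 genes, so the shNC share was high there too. The other coding genes of chromosome 19 gave 8.18%, 16.3% and 12.3% of 1211 genes. In the better-scoring 50% of each list, 52 of 240 members had a shNC peak, 21.7% (16.6 to 27.4%), beside 11.8% of all coding genes.

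**Figure D1:**
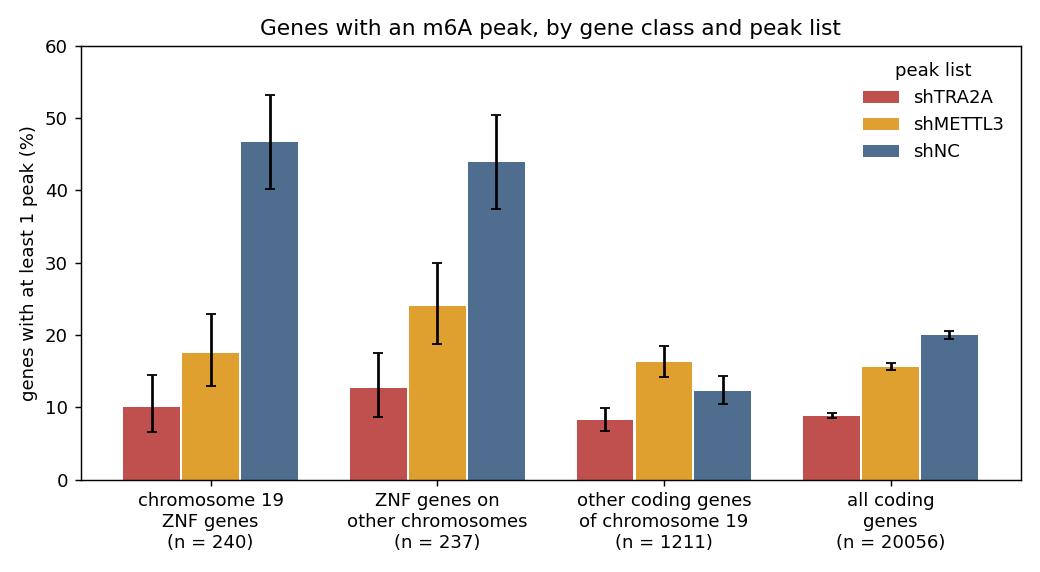
Share of genes with at least 1 assigned peak in the shTRA2A, shMETTL3 and shNC lists, for 4 gene classes, with exact 95% intervals as error bars. Chromosome 19 ZNF genes reach 46.7% in shNC, against 10.0% in shTRA2A and 17.5% in shMETTL3. The lists differ in length, with 9206, 2736 and 5433 peaks in this order.

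Of the 240 members, 125 had a peak in any list. Members held 34 shTRA2A, 63 shMETTL3 and 277 shNC peaks, which is 1.24%, 1.16% and 3.01% of each whole list. Of the 2736 best shNC peaks, the size of the shTRA2A list, 42 were in members, 1.54%. They lay in 29 members, beside 24 with a shTRA2A peak. Over all coding genes these counts were 1575 and 1776. Of the 5433 best, the size of the shMETTL3 list, 104 were in members, 1.91%. They lay in 63 members, beside 42 with a shMETTL3 peak, and over all coding genes the counts were 2683 and 3137. Both limits were chosen after the data were seen. The member peaks of the control list thus lay mostly among its weaker peaks.

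The control peaks of members were mostly narrow and low in score, and other genes of the chromosome and family shared these traits in part. Median scores of member peaks were 7.98 in shTRA2A, 8.46 in shMETTL3 and 10.4 in shNC, against medians of the whole lists of 7.998, 8.40 and 12.4. Above the median of their list were 16 of 34 shTRA2A, 34 of 63 shMETTL3 and 85 of 277 shNC member peaks, or 47.1%, 54.0% and 30.7%. In shNC 41.6% of the peaks of ZNF genes on other chromosomes and 32.8% of those of other chromosome 19 genes were above it. Median widths were 162.5, 100 and 100 nt, and in shNC the median was 100 nt in both those classes as well. Peaks here are called regular when they have a single block and a width of at most 1000 nt that divides by 25 nt. The others are mostly long spans that may cross introns. Of the member peaks 10 of 34 in shTRA2A, 29.4%, 16 of 63 in shMETTL3, 25.4%, and 14 of 277 in shNC, 5.05%, were of that other kind, whereas over all coding genes the shares were 33.3%, 30.3% and 19.5%.

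Members with several control peaks held them in short trains. A member with a shNC peak had 2.47 on average, and 29 of 112 had 4 or more. The average was 2.13 over all coding genes, 2.75 for ZNF genes on other chromosomes and 1.68 for other chromosome 19 genes. Over all coding genes, 557 of 4000 control peak genes had 4 or more. In shTRA2A no member had 4 or more, and in shMETTL3 ZNF91 alone did. Shares with 4 or more knockdown peaks over all coding genes were not computed, so these knockdown counts have no background. Where a member had 2 or more regular shNC peaks on a strand, the median gap between neighbours was 262.5 nt, and 127 of 150 gaps, 84.7%, were at most 1000 nt. For ZNF genes on other chromosomes the values were 275 nt and 75.5%, and over all coding genes 325 nt and 67.8%. From the first to the last such peak the median span was 1525 nt in members and 1900 nt over all coding genes. ZNF331, an imprinted gene, shows the pattern plainly, with 5 shNC peaks of 75 to 150 nt between chr19:53576785 and 53577409, scores of 9.36 to 12.9, and no knockdown peak. ZNF432 had 7 shNC peaks of 50 to 125 nt between 52032978 and 52034577, scores of 8.87 to 10.9, and no knockdown peak either.

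More than 50% of the members' control peaks had their midpoint in the last 20% of the gene body. The strand of 210 members could be taken from the RefSeq windows. For these, 12 of 28 shTRA2A peak midpoints, 42.9%, 24 of 60 shMETTL3 midpoints, 40.0%, and 135 of 245 shNC midpoints, 55.1%, lay in the last 20% of the body. The shares over all coding genes were 39.7%, 41.1% and 48.3%. In the first 20% lay 6, 6 and 10 member midpoints, or 21.4%, 10.0% and 4.08%, beside 14.0%, 13.7% and 10.3% over all coding genes. The last 10% alone held 8, 16 and 71 member midpoints, or 28.6%, 26.7% and 29.0%, beside 24.0%, 26.6% and 33.8%. In shNC the member share was thus above that of all coding genes in the last 20% and below it in the last 10%. With regular peaks alone, the last 20% held 50%, 47.8% and 57.7% of member midpoints, beside 44.5%, 46.1% and 50.6% over all coding genes. The median distance from the midpoint to the end of the body was 4314, 5374 and 3379 nt in the shTRA2A, shMETTL3 and shNC lists, against 11639, 10023 and 7068 nt over all coding genes, whose bodies are longer where they carry a control peak (median 44349 nt, against 23272 nt for members).

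**Figure D2:**
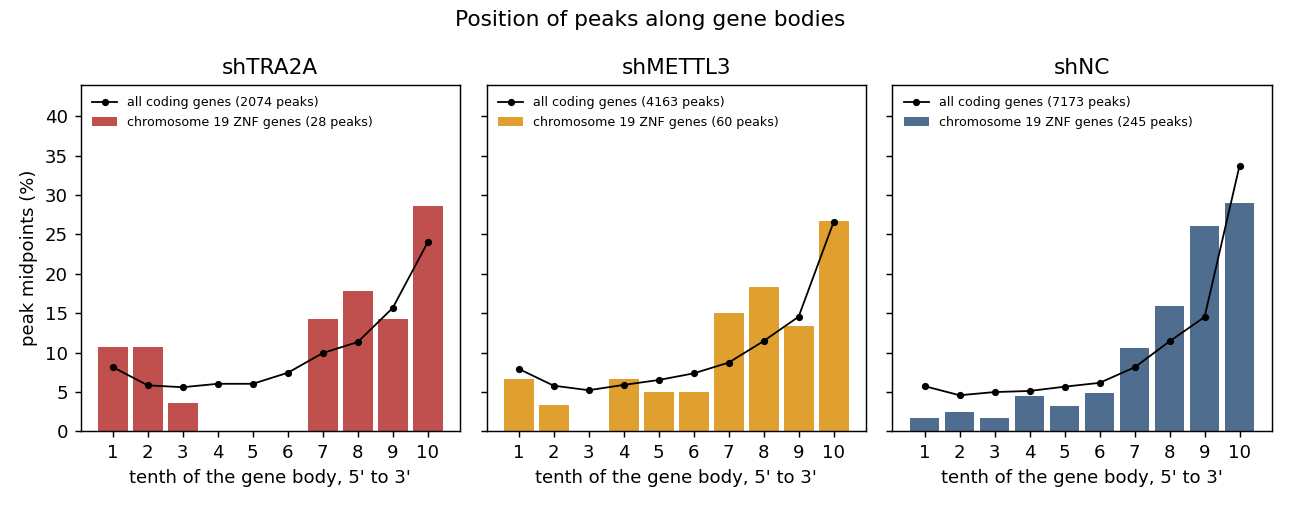
Share of peak midpoints in each 10% of the gene body, 5′ to 3′, for chromosome 19 ZNF genes (bars) and all coding genes (line) in the shTRA2A, shMETTL3 and shNC lists, for genes of known strand. In shNC 55.1% of 245 member midpoints lie in the last 20% and 4.08% in the first 20%.

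The comparison of shTRA2A with shNC asks whether the control peaks of members are still found when TRA2A is targeted. Of the 112 members with a shNC peak, 19 had a shTRA2A peak, 17.0% (10.5 to 25.2%), beside 29.1% of all control peak genes. By place, 11 of the 277 shNC peaks were overlapped by a shTRA2A peak on the same strand by at least 1 base, 3.97% (2.0 to 6.99%), beside 9.65% over all coding genes. These 11 peaks belonged to 9 members. Of 117 members with a peak in either list, 110 had fewer shTRA2A than shNC peaks, 94.0%, beside 75.2% over all coding genes.

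For shMETTL3 against shNC, which asks the same of the hairpin against the m6A writer and uses the same shNC list, 32 of the 112 members had a shMETTL3 peak, 28.6% (20.4 to 37.9%), beside 47.8% of all control peak genes. The shMETTL3 list overlapped 25 of the 277 shNC peaks, 9.03% (5.93 to 13.0%), beside 18.0% over all coding genes, in 16 members. Fewer shMETTL3 than shNC peaks were assigned to 103 of 122 members, 84.4%, beside 57.0% over all coding genes, and more to 13, 10.7%, beside 29.6%. Among ZNF genes on other chromosomes, 24 of 104 control peak genes had a shTRA2A peak, 23.1% (15.4 to 32.4%), and 47 a shMETTL3 peak, 45.2% (35.4 to 55.3%). Among the other coding genes of chromosome 19 the counts were 47 and 82 of 149, 31.5% (24.2 to 39.7%) and 55.0% (46.7 to 63.2%).

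The shares of control peaks found again were higher at high than at low control scores, and members hold mostly low scores. Whether low scores account for the members' lower shares was not tested. Control peaks were put into quintiles of the whole shNC list by score. The lowest quintile held 95 of the 277 member peaks, and 0 of them were overlapped in either knockdown list, which allows a share of up to 3.16% by the limit of 3 counts and up to 3.81% by the exact interval. Over all coding genes 1.03% were overlapped there in shTRA2A and 2.78% in shMETTL3. In the highest quintile, 7 of 26 member peaks, 26.9% (11.6 to 47.8%), were overlapped by a shTRA2A peak and 9, 34.6% (17.2 to 55.7%), by a shMETTL3 peak, and the shares over all coding genes were 28.6% and 44.8%. The members' share was below that over all coding genes in 4 of 5 quintiles for shTRA2A and in all 5 for shMETTL3. Each time the member interval, often wide, held the share over all coding genes.

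**Figure D3:**
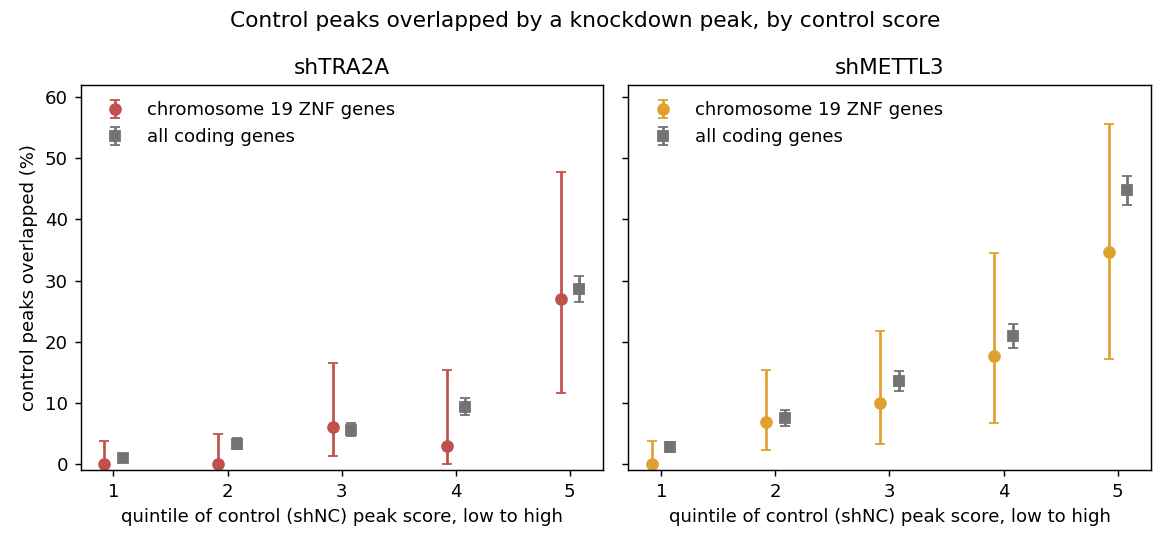
Share of shNC peaks overlapped by a shTRA2A peak (left) or a shMETTL3 peak (right), by quintile of shNC score, for chromosome 19 ZNF genes (circles) and all coding genes (squares), with exact 95% intervals. In the highest quintile 26.9% and 34.6% of 26 member peaks were overlapped, beside 28.6% and 44.8% over all coding genes.

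By gene, members were set beside the control peak genes in 3 equal classes of best shNC score. In the highest class they had a shTRA2A peak in 12 of 23 cases, 52.2% (30.6 to 73.2%), and a shMETTL3 peak in 14, 60.9% (38.5 to 80.3%), beside 46.6% and 68.8% over all coding genes. In the lowest class 1 of 51 members, 1.96% (0.0496 to 10.4%), had a shTRA2A peak and 9, 17.6% (8.40 to 30.9%), a shMETTL3 peak, beside 14.9% and 30.6%. In the middle class the shares were 6 of 38, 15.8% (6.02 to 31.3%), for shTRA2A, beside 25.7%, and 9 of 38, 23.7% (11.4 to 40.2%), for shMETTL3, beside 43.9%. In the lowest class for shTRA2A and the middle class for shMETTL3 the member interval thus lay below the share over all coding genes. Members with 1 control peak were found in 1 of 42 cases in shTRA2A, 2.38% (0.0603 to 12.6%), beside 20.5%, and in 7 of 42 in shMETTL3, 16.7% (6.97 to 31.4%), beside 36.5%. For both knockdowns that interval too lay below the share over all coding genes. Members with 2 or 3 control peaks were found in 7 of 41 cases in shTRA2A, 17.1% (7.15 to 32.1%), beside 32.3%, and in 14 of 41 in shMETTL3, 34.1% (20.1 to 50.6%), beside 52.5%. Members with 4 or more were found in 11 of 29, 37.9% (20.7 to 57.7%), in each list, beside 52.8% in shTRA2A and 77.2% in shMETTL3. Of these intervals the one for shTRA2A at 4 or more peaks held the share over all coding genes, and the others lay below it. Members found in shTRA2A had a median best shNC score of 21.8, against 11.03 for those not found. For shMETTL3 these medians were 17.8 and 11.2. Over all coding genes the split was of the same direction, with 20.4 and 12.7 for shTRA2A and 18.1 and 12.1 for shMETTL3. With the shNC list limited to its best peaks, 14 of 29 members, 48.3% (29.4 to 67.5%), had a shTRA2A peak, beside 44.1% over all coding genes, and 23 of 63, 36.5% (24.7 to 49.6%), a shMETTL3 peak, beside 56.2%.

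ZNF146, whose protein consists of zinc fingers with no KRAB domain, had the strongest control peak of all members. That shNC peak was 875 nt wide, at chr19:36237279-36238153 on the plus strand, with a score of 136, rank 17 of its list. The shTRA2A list held peaks of 75 and 200 nt inside it, with scores of 7.08 and 10.6, and the shMETTL3 list peaks of 50 and 325 nt, with scores of 18.2 and 9.78. In both knockdown lists, then, the wide control peak was met by a pair of narrower ones, with midpoints 902 to 1352 nt from the end of the gene. Its 2 weaker shNC peaks, with scores of 15.5 and 13.5, lay upstream and were overlapped in neither list.

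ZNF460 kept its 2 strongest control peaks by overlap in both knockdown lists. It had shTRA2A peaks with scores of 12.6 and 9.62, shMETTL3 peaks with scores of 9.90 and 12.2, and shNC peaks with scores of 47.4, 26.6 and 14.1. The shNC peak at 57292190-57292564 and its shTRA2A and shMETTL3 counterparts all ended at the same base. The shNC peak not found again lay further upstream at 57290965-57291114.

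ZNF121, on the minus strand, had 1 shTRA2A, 2 shMETTL3 and 5 shNC peaks. The shTRA2A peak (9566978-9567077, score 8.50) lay in the strongest shNC peak (score 35.0). The shMETTL3 peaks lay in 2 other shNC peaks, with scores of 34.0 and 13.9, and the second of these shMETTL3 peaks, at 9560603-9560702 near the gene's end, scored 15.6. The knockdown lists thus met different control peaks of this gene.

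ZNF91, a KRAB zinc finger protein known to repress SVA retrotransposons, had the most peaks of any member in the shMETTL3 and shNC lists, with 1 shTRA2A, 6 shMETTL3 and 8 shNC peaks. Its 6 shNC peaks on the gene's own strand lay between 23358563 and 23360987, with scores of 11.9 to 26.2, with midpoints 53658.5 to 55908.5 nt from the end of the annotated gene body. Of these 6, 4 were overlapped by a shMETTL3 peak and 0 by a shTRA2A peak. The other 2 shNC peaks were on the opposite strand, at 23324018-23324117 and 23324193-23324242, and the single shTRA2A peak (23324018-23324192, score 8.40) overlapped the first of them. Of the shMETTL3 peaks 3 were at the same opposite-strand site, with scores of 6.41 to 8.46. The one place in ZNF91 found in the shTRA2A list was therefore on the opposite strand.

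ZNF224, a KRAB repressor described on the aldolase A gene, had peaks in pairs, one on each strand with starts 1 nt apart. Its shTRA2A peaks at 44106883-44106957 (plus, score 7.71) and 44106882-44106956 (minus, score 7.68) missed all shNC peaks. The shMETTL3 pair, 300 nt wide with scores of 9.08 (plus) and 17.7 (minus), overlapped the stronger shNC pair, 475 nt wide with scores of 47.6 and 46.6. The weaker shNC pair, with scores of 32.7 and 31.7, was not found again. ZNF587 had 4 shNC peaks on its own strand and 3 on the other, which overlap in place, with scores of up to 25.7 and 26.9, no shTRA2A peak, and 1 shMETTL3 peak (score 9.02) that missed them. Over all members 2 of 34 shTRA2A, 4 of 63 shMETTL3 and 26 of 277 shNC peaks overlapped a peak of the same list on the opposite strand, or 5.88%, 6.35% and 9.39%. Over all coding genes the shares were 3.53%, 3.86% and 5.79%. Whether such pairs are transcripts of both strands or 1 signal listed on both was not tested.

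ZNF83 had the most shTRA2A peaks of any member, 3, beside 1 shMETTL3 and 4 shNC peaks. Of the shTRA2A peaks 2 lay near the gene's end, with scores of 7.89 and 7.54, and both overlapped the shNC peak at 52612747-52613146 (score 22.8). Another shTRA2A peak, at 52637004-52637078 (score 8.19), had the same coordinates as the shMETTL3 peak (score 4.69) and no shNC peak. ZNF160 had 1 shTRA2A peak (53069756-53069930, score 8.29) that spanned 2 neighbouring shNC peaks with scores of 21.4 and 14.4, whereas its shMETTL3 peak was a span of 4887 nt elsewhere in the gene. ZNF791 had 1 shTRA2A peak (score 7.33) at the edge of its stronger shNC peak (score 23.1) and no shMETTL3 peak. ZNF562 had no shTRA2A peak, 3 shMETTL3 peaks and 1 shNC peak of 3315 nt (score 43.5), which 1 of the shMETTL3 peaks overlapped. Another of these shMETTL3 peaks was a span of 8164 nt on the opposite strand, with its midpoint outside the gene body. ZNF649 had 2 shTRA2A peaks that missed its control peaks, and a span of 8209 nt with the same coordinates in the shMETTL3 (score 8.44) and shNC (score 29.7) lists. This span was on the plus strand and began at 51888050, outside the gene body, which starts at 51889235. The other peaks of ZNF649 were on the minus strand.

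**Figure D4:**
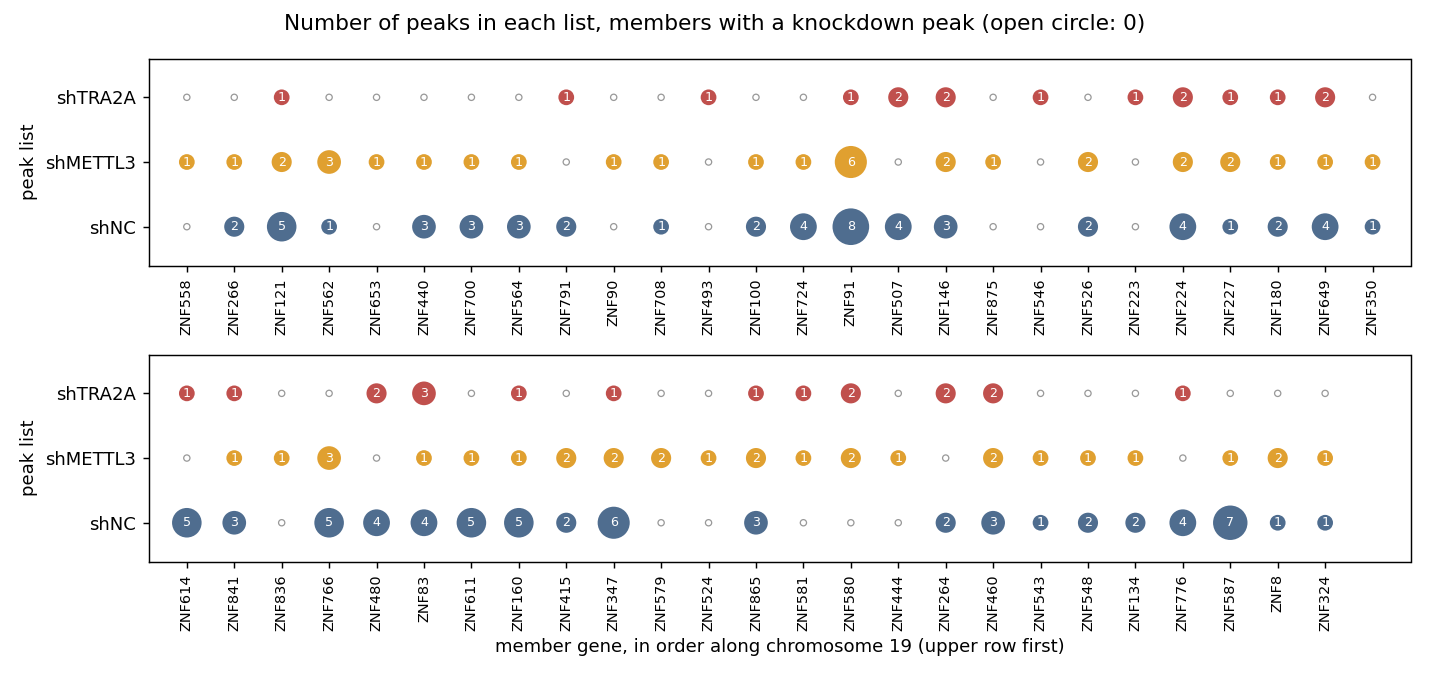
Number of peaks in the shTRA2A, shMETTL3 and shNC lists for the 51 chromosome 19 ZNF genes with a knockdown peak, in order along the chromosome. Circle area grows with the number printed in it, and small open circles stand for 0. ZNF91 has 1, 6 and 8 peaks, and 74 further members, not drawn, have shNC peaks alone.

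No knockdown peak was assigned to 74 of the members with a control peak. In one of them, ZNF20, named here after its values were seen, a shTRA2A peak that was not assigned to the gene overlapped the best shNC peak (score 11.7, a span of 6330 nt). The strongest was in ZNF675, whose protein was described as an inhibitor of TRAF6 signalling, with 1 shNC peak of 700 nt at 23653283-23653982 (score 49.2, rank 302). ZNF701 followed with 5 shNC peaks, but its best (score 29.1) was a span of 9214 nt on the opposite strand, and the other 4 scored at most 10.5. ZNF625 (score 20.8), ZNF468 (20.1), ZNF45 (19.2), ZNF320 (19.1), ZNF28 (17.3), ZNF567 (16.9), ZNF561 (15.0) and ZNF470 (14.9) had 1 to 5 shNC peaks each, with best shNC scores as given. Apart from ZNF675 and ZNF701, these scores were under 21.

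Few members had a knockdown peak without a control peak, 5 of 24 in shTRA2A and 10 of 42 in shMETTL3. The other 79.2% (57.8 to 92.9%) and 76.2% (60.5 to 87.9%) had a control peak, beside 65.5% and 60.9% over all coding genes. The strongest of them for shMETTL3 was ZNF581, with a shTRA2A peak of 275 nt (score 8.61), a shMETTL3 peak of 150 nt inside it (55635141-55635290, score 21.6, rank 221) and no shNC peak. ZNF580, which lies inside the ZNF581 body, had 2 shTRA2A and 2 shMETTL3 peaks, one of each at 55641088-55641841 with scores of 9.08 and 7.97, and none in shNC. ZNF493, ZNF546 and ZNF223 had 1 shTRA2A peak each, with scores of 7.38 to 7.86, all of them wide spans. That of ZNF546 (39994914-39997107) lay mostly upstream of the gene body, which starts at 39997060. ZNF558 (score 11.04), ZNF836 (10.8), ZNF875 (10.3) and ZNF653 (9.51) had 1 shMETTL3 peak each, with scores as given, and of these ZNF875 alone had a regular one.

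By place, 11 of the 34 shTRA2A member peaks, 32.4% (17.4 to 50.5%), overlapped a shNC peak, and 25 of the 63 shMETTL3 member peaks, 39.7% (27.6 to 52.8%), beside 34.6% and 33.1% over all coding genes. None of the 10 shTRA2A spans that were not regular overlapped a shNC peak. The share for such spans over all coding genes was not computed, so this count has no background. Between the knockdown lists, 7 of the 34 shTRA2A member peaks overlapped a shMETTL3 peak, 20.6% (8.70 to 37.9%), and 7 of the 63 shMETTL3 member peaks overlapped a shTRA2A peak, 11.1% (4.59 to 21.6%). Over all coding genes these shares were 23.9% and 11.8%. The strongest shTRA2A and shMETTL3 peaks of members were picked out after their values were seen. ZNF841 had its shTRA2A peak across the start window shown above (52094023-52095666, score 18.7, rank 41), a shMETTL3 peak at 52067404-52067478 (score 24.8) that overlapped a shNC peak of the same width (score 14.9), and 2 further shNC peaks. ZNF708 had the strongest shMETTL3 peak of any member (21294135-21294234, score 26.1, rank 117), no shTRA2A peak, and 1 shNC peak (score 13.9) about 1 kb away. ZNF347 and ZNF766, with 6 and 5 shNC peaks, had 2 and 3 shMETTL3 peaks, of which 1 each was on a shNC peak. ZNF347 also had a shTRA2A span of 9238 nt, and ZNF766 had no shTRA2A peak. ZNF480 had 2 shTRA2A peaks on the minus strand that missed its 4 shNC peaks, which were on the plus strand.

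Members stood in 16 groups when neighbours whose starts lie within 1 Mb were joined, and 9 groups with 5 or more genes held 231 of the 240 members. Control peaks were unevenly spread over them. The group of ZNF175 to ZNF331 (19:51571283-53580269) had a shTRA2A peak in 7, a shMETTL3 peak in 10 and a shNC peak in 27 of 39 members, and it held 11, 14 and 90 peaks of the 34, 63 and 277. The group of ZNF628 to ZNF446 (55476617-58489533), the largest, had 6, 13 and 27 of 57 members with a peak. The group of ZNF101 to ZNF254 (19668153-24129968), near the centromere and home of ZNF91, had 2, 5 and 14 of 37, and the group of ZNF565 to ZNF573 (36182060-37779586) 1, 2 and 8 of 24. Shares with a shNC peak were 69.2%, 47.4%, 37.8% and 33.3% in these groups. The share was 60% of 15 members in ZNF557 to ZNF846 and 50% of 24 in ZNF575 to ZNF296. It was 40% of 25 in ZNF653 to ZNF791, and 20% of 5 in both ZNF554 to ZNF77 and ZNF302 to ZNF792. The genes of a group are neighbours that arose by duplication, so they are not independent.

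**Figure D5:**
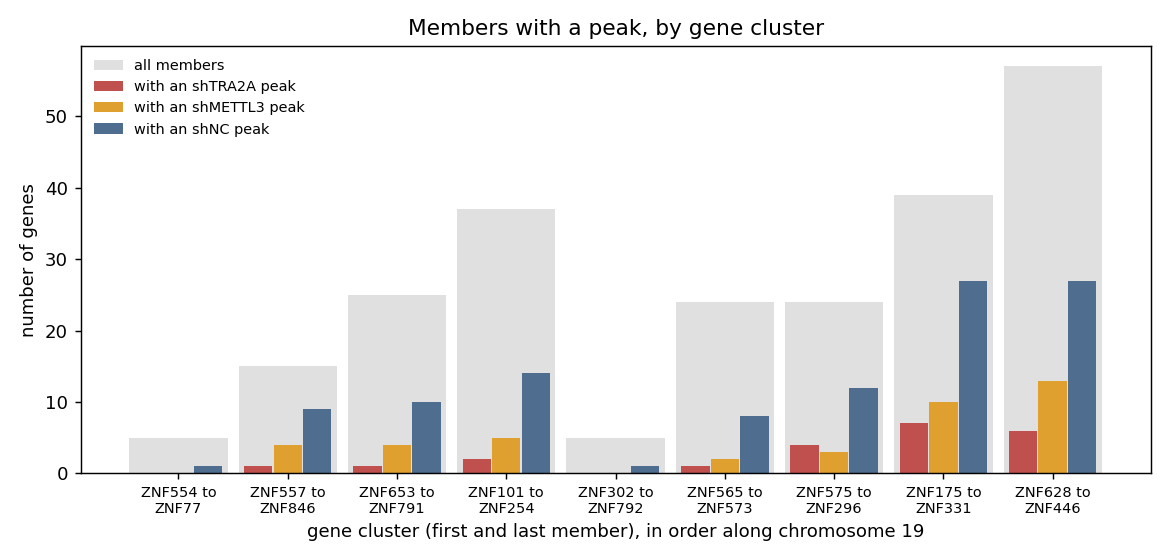
Number of chromosome 19 ZNF genes (grey) and of those with a shTRA2A, shMETTL3 or shNC peak, in the 9 gene groups with 5 or more members, in order along the chromosome. The ZNF175 to ZNF331 group has a shNC peak in 27 of 39 members.

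The remaining genes of a set list, named whatever their values, varied in their peaks. ZNF93, which represses LINE-1 elements, and ZNF85 and ZNF208 had no peak in any list. ZNF43 had 2 shNC peaks (best score 10.4), ZNF431 had 1 (score 10.1), and ZNF274, which brings SETDB1 to the ends of zinc finger genes, had 1 (score 11.6). None of these 3 had a knockdown peak. ZNF268 is not on chromosome 19 in RefSeq and is no member.

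The proteins through which KRAB zinc finger proteins act were examined as a list of 29 genes. Of these 11 had a shTRA2A peak, 13 a shMETTL3 peak and 11 a shNC peak, and of the 11 with a shNC peak 6 had a shTRA2A and 9 a shMETTL3 peak. The shares with a peak were 37.9%, 44.8% and 37.9%, beside 8.86%, 15.6% and 19.9% of all coding genes, and the shares found again 54.5% and 81.8%, beside 29.1% and 47.8%. TRIM28 had no peak in any list. SETDB1 had 1 shTRA2A, 2 shMETTL3 and 2 shNC peaks, with best scores of 7.26, 8.21 and 9.32. TASOR and MPHOSPH8, subunits of the HUSH silencing complex, had 1 and 1 shTRA2A, 3 and 1 shMETTL3, and 4 and 5 shNC peaks. ATRX, a chromatin remodeller, had 3, 3 and 6 peaks in shTRA2A, shMETTL3 and shNC, with best scores of 25.2, 11.1 and 75.5. MORC3, a nuclear ATPase, had no knockdown peak and 1 shNC peak, with a score of 26.7.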

How the data were processed

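Per the labels' protocols, total RNA was cut to fragments, immunoprecipitated for m6A or kept as input, and sequenced in pairs from a stranded kit. Per the submitters' processing notes, GRCh38, featureCounts 2.0.1, HISAT2 2.2.1 and SAMtools were used. The sources used here do not give the peak caller, its thresholds, the read depth or the handling of strand and multi-mapping reads. The deposited lists give coordinates and a score per peak made by the authors' caller, of unstated scale. A list under another name equals the shTRA2A list byte for byte and was left out. Overlaps and gene assignments were computed with scipy 1.17.1 and pandas 2.3.3 under Python 3.11.15, and the code was tested on simulated data against bedtools 2.31.1. Genes and start windows came from RefSeq (GRCh38.p14). Coordinates count from 1. All coding genes were processed alike, and their shares are the background. Genes are named by fixed rules: strongest control peaks without a knockdown peak (10), with peaks in both knockdown lists (8), overlapped (5 per knockdown), strongest knockdown peaks without a control peak (5 each), most peaks (5 per list), and 10 set symbols. The members, lists and rules were chosen with earlier results of these data known. No test between conditions was possible. Alternatives for the score threshold, peak shape, gene assignment, overlap rule, strand and merging were run.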

Additional observations from a re-analysis of the deposited data

How the results depend on the processing

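Of 44 alternative counts, 32 stayed within 1.5 times the reported one. Counts were compared here, not shares, and the number tested changes with some settings. Thus 14 of 29 control peak members with a shTRA2A peak, 48.3%, stayed within this limit of 19 of 112, 17.0%. In turn, 11 of 14 shTRA2A peak members with a control peak, 78.6%, fell outside it beside 19 of 24, 79.2%. In the better-scoring 50% of each list, 52 members had a shNC peak. Of these 11 had a shTRA2A peak (21.2%, beside 24.9% over all coding genes) and 16 a shMETTL3 peak (30.8%, beside 41.5%). Of the knockdown peak members, 11 of 14 for shTRA2A and 16 of 25 for shMETTL3 had a shNC peak. A shMETTL3 peak overlapped 13 of 85 shNC peaks, 15.29%, beside 19.15% over all coding genes. Members that had to have a control peak overlapped numbered 9 for shTRA2A and 16 for shMETTL3, where 19 and 32 had any assigned knockdown peak. Of the 9, ZNF20 is not among the 19, since the overlapping shTRA2A peak was not assigned to it. With 50% of the control peak to be covered, 4 and 13 of 277 shNC peaks were found in shTRA2A and shMETTL3, and with midpoints within 100 nt 5 were found in shTRA2A. Shares over all coding genes were not computed for these overlap rules or for genes with an overlapped control peak. Nor were they computed for knockdown peak genes in the better-scoring 50%. With the shNC list limited to its best peaks, 7 of 42 member peaks were overlapped by a shTRA2A peak, 16.7%, beside 22.3% over all coding genes. The settings on score, coverage and list size test fewer peaks or demand more overlap. For the others the cause was not tested. Regular peaks alone, no peaks with an opposite-strand partner, any coding body touched, strand ignored and merging within 100 nt moved no count by over 1.5 times. The limits set by the best peaks and by opposite-strand partners were chosen after seeing the data. No paired analysis was possible because each condition has 1 peak list.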

Other observations

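Zinc finger genes of chromosome 19 whose symbols fall outside the rule also carried peaks. Of 21 such genes with ZNF and a letter, ZFP, ZSCAN, ZIM or PEG3 symbols, 0 had a shTRA2A peak, 4 a shMETTL3 peak, 19.05%, and 6 a shNC peak, 28.6%, beside 8.86%, 15.6% and 19.9% of all coding genes. ZNF585B had 1 shMETTL3 (score 10.0) and 3 shNC peaks (best score 14.9), and ZFP36, an mRNA decay factor with another kind of zinc finger, had 1 and 1 (scores 6.47 and 9.82). ZNF780A and ZNF780B had 2 shNC peaks each and no knockdown peak. PEG3, an imprinted gene, had no peak in any list.

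The other coding genes of chromosome 19 gave other counts. More shMETTL3 than shNC peaks were assigned to 136 of 264 of them, 51.5%, and fewer to 86, 32.6%, where the ZNF genes had more in 13 of 122 and fewer in 103. For shTRA2A against shNC, fewer peaks were assigned to 115 of 201 other genes, 57.2%, where the ZNF genes had fewer in 110 of 117.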
